A study of Mus musculus with 6 samples.

Results

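Notch receptors, their ligands, target and feedback genes and the receptor-modifying enzyme Lfng were followed in epithelial cells of mouse lungs at E16.5, late in embryonic life. The 10 genes were chosen by name, as the rows of a deposited count table whose Entrez identifier maps to Notch1, Notch2, Notch3, Jag1, Jag2, Dll1, Hes1, Nrarp, Dtx4 or Lfng. They make 10 of the 27179 rows of that table, and all 10 were among the 14842 genes with enough counts to test. Grhl2_cKO embryos carried Shh-Cre with 1 floxed and 1 null allele of Grhl2 (Shh-Cre;Grhl2f/-, n = 3, replicates 1, 5 and 10), and control embryos carried Shh-Cre with 1 floxed and 1 intact allele (Shh-Cre;Grhl2f/+, n = 3, replicates 1, 3 and 7). Grhl2 encodes grainyhead-like 2, a transcription factor of epithelia, and Shh-Cre is a recombinase made where Sonic hedgehog is expressed, which includes the embryonic lung epithelium. Cre was thus present in both genotypes, and control cells in which it acted keep 1 Grhl2 allele. There were 2 males and 1 female of each genotype. Cells bearing EpCAM, a surface protein of epithelium, were sorted and their messenger RNA was sequenced. The labels do not say that samples came from separate embryos, although a male and a female sample cannot share 1 embryo. The p-values therefore reflect only the variation among these 6 libraries, which may be technical in part.

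Notch signalling passes between touching cells. A Delta or Jagged ligand on one cell engages a Notch receptor on its neighbour, the receptor is cut by ADAM proteases and then by gamma-secretase, and the freed intracellular domain joins the DNA-binding protein RBPJ to switch on target genes such as Hes1 and Nrarp. In the developing airway the pathway is known for dividing epithelial progenitors between secretory, ciliated and neuroendocrine fates.

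Libraries held 13472216 to 17228762 gene counts. Grhl2 itself stood at 105.3, 109.2 and 115.3 CPM in Grhl2_cKO replicates 1, 5 and 10, and at 149.2, 147.9 and 146.0 CPM in control replicates 1, 3 and 7, which is 74.4% of control (edgeR adjusted p = 0.0026). No listed gene lies on chromosome 15 with Grhl2. Sftpc, Nkx2-1, Cdh1 and Epcam, which mark lung epithelium, were expressed in all 6 libraries, and Epcam, the gene behind the sort, was at 67.6% of control (edgeR adjusted p = 0.00412). Of 5 immune markers, which summed to 5.27 to 8.24 CPM in Grhl2_cKO and 5.75 to 7.92 CPM in control, Ptprc was at 0.609 CPM or less and Cd3e was at 0 in 5 of 6 libraries. Cd68 stood higher, at 3.79 to 4.78 CPM over the 6 libraries, and Csf1r at 0.822 to 2.92 CPM. Markers of endothelium and mesenchyme were present, and their summed levels overlapped between genotypes, at 145.5 to 154.5 CPM in Grhl2_cKO against 110.0 to 167.8 CPM in control for 6 endothelial genes, and 649.7 to 1163.7 CPM in Grhl2_cKO against 646.4 to 984.2 CPM in control for 8 genes of mesenchyme and pericytes. Grhl2_cKO replicate 1 stood apart in 5 heart muscle markers, at 195.5 CPM, while the remaining 5 libraries had 16.9 to 36.4 CPM. CPM is the count of a gene scaled to a common library size by the TMM method.

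Nrarp and Dtx4 fell in Grhl2_cKO, the only calls among the 10 genes (quasi-likelihood test of edgeR with adjustment by Benjamini-Hochberg over all genes tested, adjusted p under 0.05). Across all genes 3.62% were called, 2.39% lower and 1.23% higher in Grhl2_cKO. In these bulk samples, fewer cells of a type and less RNA per cell cannot be told apart. Jag1, Notch3, Notch1 and Dll1 did not pass, although their CPM did not overlap between genotypes, and Notch2, Jag2, Hes1 and Lfng overlapped. In all, 6 of the 10 genes had no overlap, 5 lower and Dll1 higher in Grhl2_cKO, beside 18.1% of all genes tested. The 10 genes were chosen with earlier results of these data known, so setting them beside all genes is not a test of the list. The median log2 fold change of the 10 genes was -0.12, with a range from -0.67 for Nrarp to 0.89 for Dll1, and the median over all genes tested was close to 0.

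**Figure D1:**
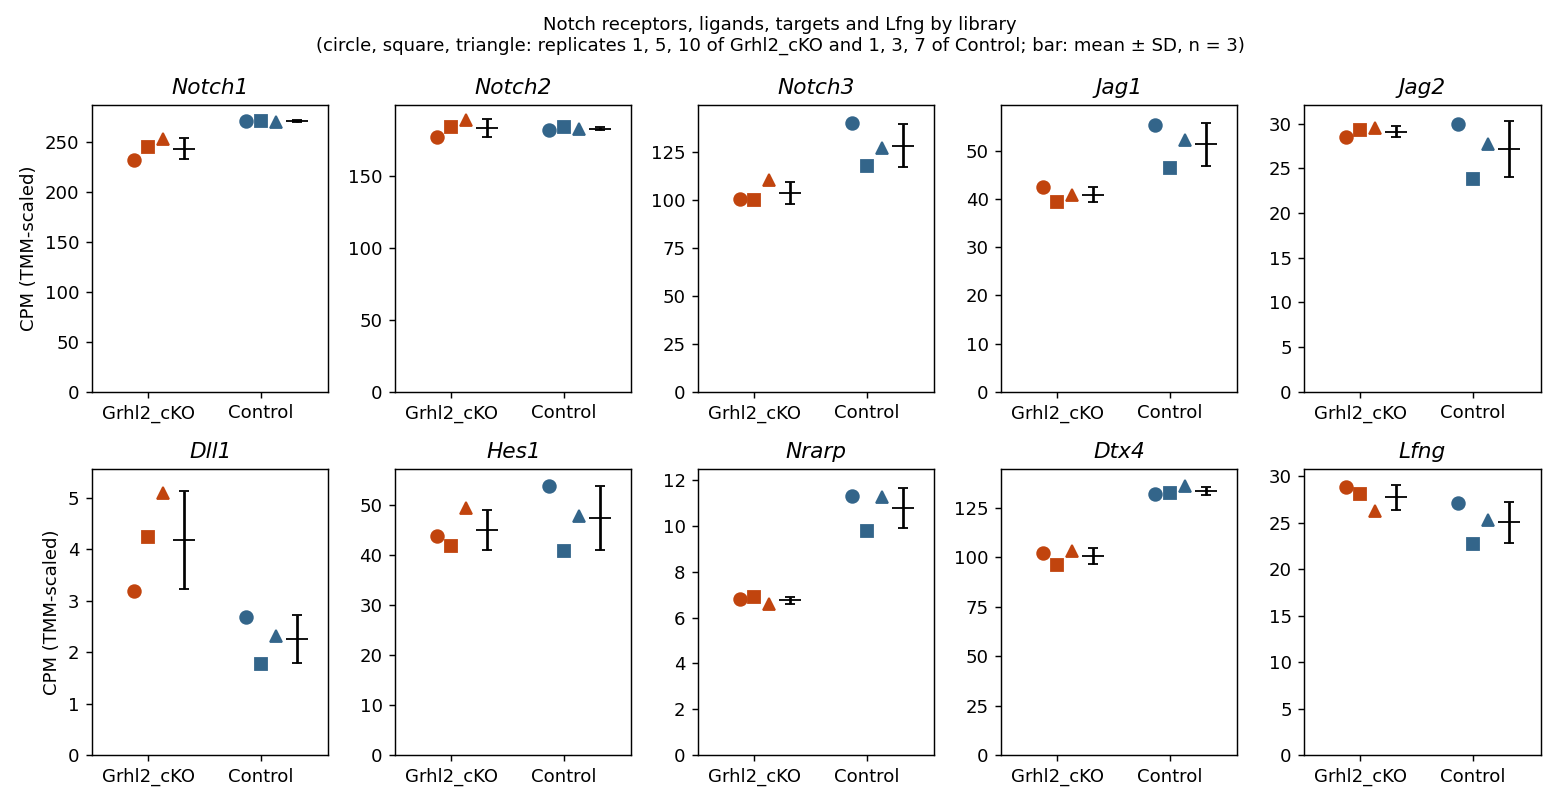
Expression of the 10 genes in each library, in CPM on TMM-scaled library sizes, with Grhl2_cKO (red) and Control (blue) in each panel; each point is 1 library and the bar gives the mean ± SD (n = 3). Nrarp sits at 6.57 to 6.87 CPM in Grhl2_cKO, below its 9.74 to 11.3 CPM in control, while the points of Notch2, Jag2, Hes1 and Lfng overlap.

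Of the 10 genes, Nrarp showed the largest fall. Nrarp encodes a small ankyrin repeat protein that is induced by Notch and binds the receptor's intracellular domain to limit its signal (Entrez 67122, chromosome 2, 25180758 to 25183339, mm10). It stood at 6.79, 6.87 and 6.57 CPM in Grhl2_cKO replicates 1, 5 and 10, and at 11.3, 9.74 and 11.2 CPM in control replicates 1, 3 and 7. All 3 Grhl2_cKO libraries were thus below the lowest control. The means were 6.75 ± 0.155 CPM in Grhl2_cKO and 10.8 ± 0.875 CPM in control (SD, n = 3 each). The fitted log2 fold change was -0.67 ± 0.12 (SE; edgeR adjusted p = 0.0155), so that Nrarp was at 62.8% of control (95% interval 52.0% to 75.9%). These levels rest on 107 to 174 counts per library. The call was lost in the fits without Grhl2_cKO replicate 5 (adjusted p = 0.059), Grhl2_cKO replicate 10 (0.0664) or control replicate 7 (0.0596), and adjusted p was 0.0104 to 0.0664 over 16 alternatives, with a log2 fold change of -0.74 to -0.63.

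Dtx4 fell by less, with a smaller standard error of its fold change. It encodes a ubiquitin ligase of the deltex family, whose members act on Notch receptors (Entrez 207521, chromosome 19, 12466329 to 12502179). Dtx4 was grouped with the target and feedback genes when the list was made, and its relatives Dtx1, Dtx2, Dtx3 and Dtx3l with receptor turnover. Whether Notch drives Dtx4 in these cells was not tested. Dtx4 stood at 102.2, 95.9 and 103.4 CPM in Grhl2_cKO replicates 1, 5 and 10, and at 131.9, 132.6 and 135.9 CPM in control replicates 1, 3 and 7. No Grhl2_cKO library came near the controls, which lay within a few CPM of each other. Its log2 fold change was -0.41 ± 0.06 (SE; edgeR adjusted p = 0.00301), 75.3% of control (95% interval 69.2% to 82.0%). Dtx4 was called in each of the 16 alternatives, with adjusted p from 9.93e-06 to 0.0203.

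Hes1, which encodes a basic helix-loop-helix repressor and is the best known Notch target, did not pass (Entrez 15205, chromosome 16, 30065357 to 30067796). It stood at 43.7, 41.8 and 49.4 CPM in Grhl2_cKO replicates 1, 5 and 10, and at 53.7, 40.9 and 47.8 CPM in control replicates 1, 3 and 7. The lowest library was a control and the highest was another control. The log2 fold change was -0.08 ± 0.10 (SE; edgeR adjusted p = 0.897), with a 95% interval of 80.8% to 111% of control. Measured within a library and per kilobase of gene length, Nrarp was 0.0873, 0.0924 and 0.0748 times the level of Hes1 in Grhl2_cKO replicates 1, 5 and 10, against 0.118, 0.134 and 0.132 times in control replicates 1, 3 and 7. This ratio was chosen after the values were seen and was not tested.

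The 250 bases before the annotated start of Nrarp and of Lfng are shown because Nrarp is the called gene with an entry in the RefSeq promoter table (GRCm38.p6), and Lfng is the listed gene whose window holds the RBPJ core motif. Both are read 5′ to 3′ on the plus strand and end at the base before the start, and capitals mark the letters TGGGAA or their reverse complement.
Nrarp, chr2:25180508-25180757: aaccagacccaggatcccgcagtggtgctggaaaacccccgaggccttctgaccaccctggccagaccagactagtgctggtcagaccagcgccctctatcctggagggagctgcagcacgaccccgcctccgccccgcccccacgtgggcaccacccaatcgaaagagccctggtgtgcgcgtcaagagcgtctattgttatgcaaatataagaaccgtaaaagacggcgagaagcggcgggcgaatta
Lfng, chr5:140607091-140607340: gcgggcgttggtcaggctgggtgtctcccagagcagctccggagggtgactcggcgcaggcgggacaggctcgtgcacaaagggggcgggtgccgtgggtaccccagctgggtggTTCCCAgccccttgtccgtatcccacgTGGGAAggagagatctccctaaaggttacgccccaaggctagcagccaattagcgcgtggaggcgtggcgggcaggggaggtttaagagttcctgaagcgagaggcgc
The Lfng window held the core at 135 bases before the start in reverse orientation and at 108 bases before it in forward orientation (positions -135 and -108, counted to the leftmost base of the match). Windows were found for 8 of the 10 genes, 9 windows in all since Dll1 has a pair of starts, and Hes1 and Dtx4 had no entry. TGGGAA was found on either strand in 1 of these 9 windows and in 21.6% of the 32851 windows of the table. A grainyhead motif, AACNNGTT, which reads the same on both strands, was in 0 of the 9 and in 3.64% of all windows. A match is a string of letters and not a measured site.

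No receptor gene passed the test. Notch1, Notch2 and Notch3 encode the surface receptors that carry the signal to the nucleus. Notch1 (Entrez 18128, chromosome 2, 26457902 to 26503822) stood at 232.5, 245.1 and 253.4 CPM in Grhl2_cKO replicates 1, 5 and 10, and at 271.3, 271.8 and 270.3 CPM in control replicates 1, 3 and 7. Each Grhl2_cKO library was below the controls, which were nearly equal. The log2 fold change of -0.15 ± 0.06 (SE) did not pass (edgeR adjusted p = 0.214), and its 95% interval was 82.5% to 97.9% of control. Notch3 (Entrez 18131, chromosome 17, 32120820 to 32166896) stood at 100.7, 100.1 and 110.5 CPM in Grhl2_cKO replicates 1, 5 and 10, and at 140.3, 117.6 and 127.1 CPM in control replicates 1, 3 and 7. The groups did not overlap, and control replicate 3 lay closest to the Grhl2_cKO libraries. Its log2 fold change was -0.31 ± 0.07 (SE; edgeR adjusted p = 0.0555), 80.9% of control with an interval of 72.1% to 90.7%. Notch3 passed the threshold with DESeq2 (adjusted p = 0.0216), with robust quasi-likelihood (0.0449) and with total counts in place of TMM (0.0408), and its alternatives spanned 0.0216 to 0.192.

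Notch2 (Entrez 18129, chromosome 3, 98013538 to 98150367) gave the closest match between genotypes. It stood at 176.95, 183.8 and 188.9 CPM in Grhl2_cKO replicates 1, 5 and 10, and at 182.1, 183.9 and 182.2 CPM in control replicates 1, 3 and 7, with the Grhl2_cKO libraries on both sides of the controls. The log2 fold change was 0.00 ± 0.05 (SE; edgeR adjusted p = 0.995), and the 95% interval of 92.4% to 109% of control is the range of change these libraries allow. Per kilobase, the receptors summed to 54.0, 55.9 and 58.6 CPM in Grhl2_cKO replicates 1, 5 and 10, against 63.6, 60.96 and 61.8 CPM in control replicates 1, 3 and 7. Notch3 made 22.5% to 23.7% of that sum in Grhl2_cKO and 24.3% to 27.8% in control. Notch3 is also known in pericytes, whose marker Pdgfrb stood at 43.5, 41.4 and 48.8 CPM in Grhl2_cKO and 47.2, 44.0 and 46.9 CPM in control. Of the 8 genes of mesenchyme and pericytes, 1 was called, beside 3.62% of all genes tested. It was Cspg4, which rose to 136% of control (edgeR adjusted p = 0.0189). Rgs5, of the same list, was at 93% of control (edgeR adjusted p = 0.955), and the median log2 fold change of the list was -0.06. The part of such cells in the Notch3 values was not tested. The annotated intervals of Notch1, Notch2 and Notch3 overlap long noncoding RNA genes. The sources used here do not give the strand setting, so reads of shared exons cannot be told apart. The overlapping gene in the table, 0610009E02Rik at Notch1, held at most 0.842 CPM.

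**Figure D2:**
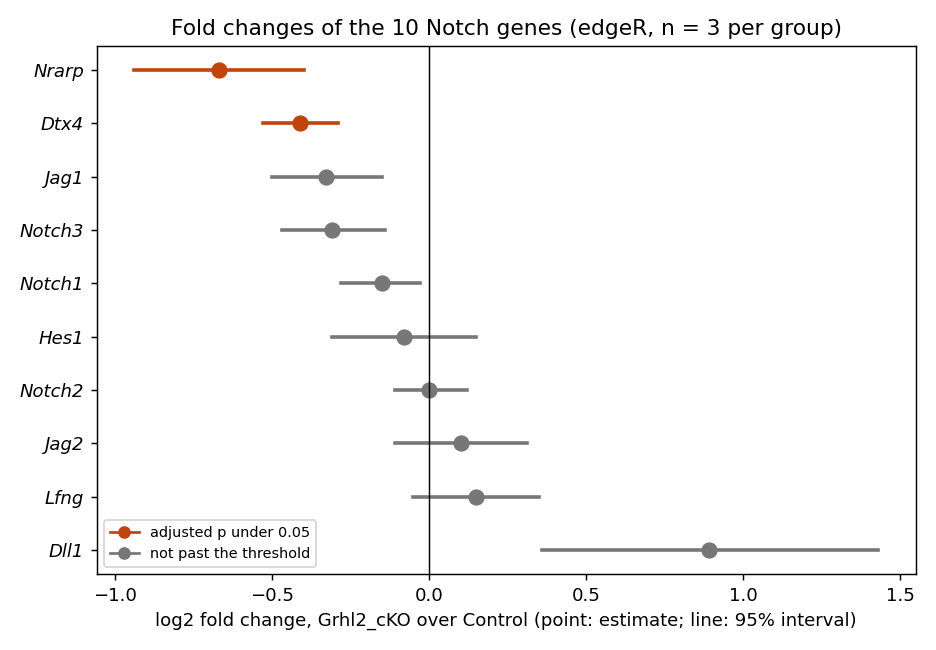
Log2 fold changes of the 10 genes, Grhl2_cKO over Control, with 95% intervals from the edgeR quasi-likelihood fit (n = 3 per group); red marks adjusted p under 0.05. Nrarp (-0.67) and Dtx4 (-0.41) are the red points, and Dll1 (0.89) has the widest interval, 0.36 to 1.43.

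No ligand gene passed the test. Jag1 encodes Jagged 1 (Entrez 16449, chromosome 2, 137081451 to 137116520). It stood at 42.5, 39.5 and 40.9 CPM in Grhl2_cKO replicates 1, 5 and 10, and at 55.4, 46.6 and 52.3 CPM in control replicates 1, 3 and 7, with no overlap. The log2 fold change was -0.33 ± 0.08 (SE; edgeR adjusted p = 0.0501), 79.7% of control with a 95% interval of 70.6% to 89.9%. Jag1 passed the threshold with DESeq2 (adjusted p = 0.0436), robust quasi-likelihood (0.0414), total-count scaling (0.0491) and without control replicate 3 (0.0389), and its alternatives spanned 0.0389 to 0.183. Jag2, which encodes Jagged 2 (Entrez 16450, chromosome 12, 112907803 to 112929812), stood at 28.4, 29.3 and 29.5 CPM in Grhl2_cKO replicates 1, 5 and 10, and at 29.9, 23.8 and 27.8 CPM in control replicates 1, 3 and 7. The groups overlapped, and the log2 fold change was 0.10 ± 0.09 (SE; edgeR adjusted p = 0.8), an interval of 92.8% to 124% of control. Per kilobase, Jag1 was 1.10, 0.995 and 1.02 times Jag2 in Grhl2_cKO replicates 1, 5 and 10, against 1.37, 1.44 and 1.39 times in control replicates 1, 3 and 7.

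Dll1, a Delta ligand gene, was the listed gene with the largest positive fold change, at a low level (Entrez 13388, chromosome 17, 15367354 to 15376932). It stood at 3.19, 4.24 and 5.09 CPM in Grhl2_cKO replicates 1, 5 and 10, and at 2.69, 1.77 and 2.32 CPM in control replicates 1, 3 and 7, from 53 to 86 counts in Grhl2_cKO and 29 to 36 in control. Each Grhl2_cKO library was above every control, and replicate 1 lay nearest to them. The log2 fold change of 0.89 ± 0.24 (SE) did not pass (edgeR adjusted p = 0.0791), and its 95% interval was 129% to 269% of control. Without Grhl2_cKO replicate 1, the knockout library with the least Dll1, the log2 fold change was 1.06 and Dll1 was called (edgeR adjusted p = 0.0443). Leaving out the lowest knockout library raises the fold change in any case. That library also had the high heart muscle markers, whose part was not tested. This adjusted p was the lowest of the alternatives, which reached 0.285 without control replicate 3 (edgeR). Per kilobase, Jag1 exceeded Dll1 8.32, 5.82 and 5.01 times in Grhl2_cKO replicates 1, 5 and 10, against 12.9, 16.46 and 14.1 times in control replicates 1, 3 and 7.

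Delta ligands are known in neuroendocrine cells of the airway. Of 7 markers of those cells, 2 were called higher in Grhl2_cKO, beside 1.23% of all genes tested. The markers were chosen with earlier results of these data known, so this count is not a test. The summed level of 7 neuroendocrine markers was 81.7, 84.4 and 94.3 CPM in Grhl2_cKO replicates 1, 5 and 10, against 73.4, 66.8 and 68.4 CPM in control replicates 1, 3 and 7. Most of that sum was Uchl1, which encodes a ubiquitin hydrolase and was not called, at 68.1, 68.5 and 77.5 CPM in Grhl2_cKO replicates 1, 5 and 10, against 62.8, 58.0 and 59.6 CPM in control replicates 1, 3 and 7 (edgeR adjusted p = 0.103). Grp had too few counts to test. Insm1, a zinc finger factor of neuroendocrine cells, rose to 227% of control and Celf3, which encodes an RNA-binding protein, to 193% (edgeR adjusted p = 0.021 and 0.0147). The other tested markers, Chga, Syp and Calca, were at 131%, 129% and 78.4% of control and were not called (edgeR adjusted p = 0.737, 0.573 and 0.787). Among the knockout libraries, Insm1 and Celf3 were highest in replicate 10 and lowest in replicate 1, as Dll1 was. Uchl1 was highest in replicate 10 and nearly equal in replicates 1 and 5. Syp was highest in replicate 1, and Chga and Calca in replicate 5. These orders of so few libraries were not tested. Dner, which encodes a Delta- and Notch-like transmembrane protein known from neurons, stood at 2.89, 4.17 and 5.09 CPM in Grhl2_cKO replicates 1, 5 and 10, and at 2.91, 2.01 and 2.07 CPM in control replicates 1, 3 and 7, an overlap of 1 library on either side (log2 fold change 0.81 ± 0.25 SE; edgeR adjusted p = 0.146). Of 4 neuronal markers, 2 were tested, and Elavl4 was at 101% of control (edgeR adjusted p = 0.998). The other, Tubb3, rose (edgeR adjusted p = 0.0406), and was highest in Grhl2_cKO replicate 1, at 3.67 CPM, against 1.54 and 0.888 CPM in replicates 5 and 10 and 0.194 to 0.374 CPM in control. The part of these cells in the Dll1 values was not tested.

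**Figure D3:**
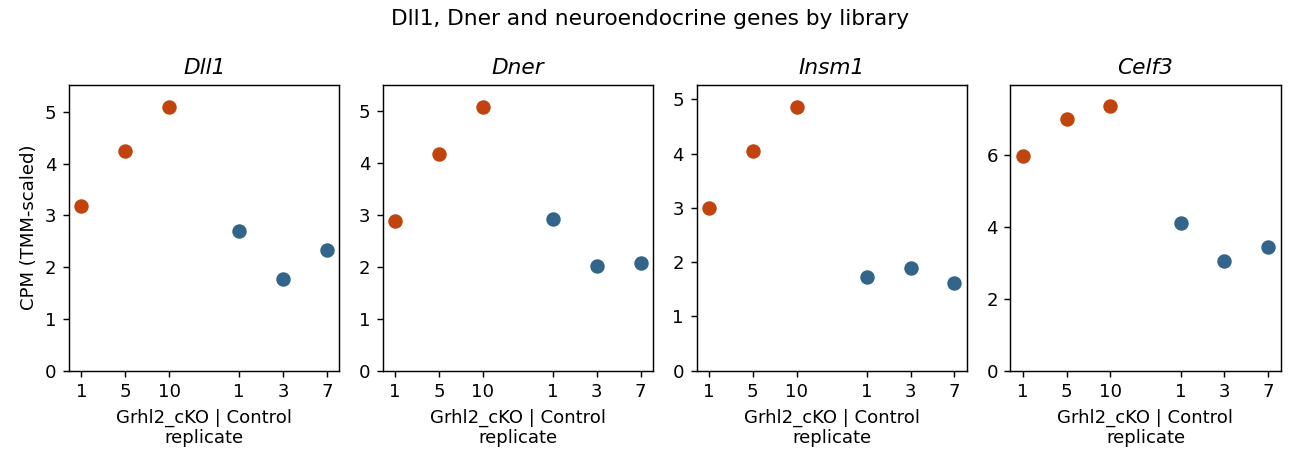
CPM of Dll1, Dner and the 2 called neuroendocrine markers in each library, with Grhl2_cKO (red) left of Control (blue) and replicate numbers on the x axis. Dll1, Insm1 and Celf3 are above all controls in each Grhl2_cKO library, and Dner in Grhl2_cKO replicate 1 (2.89 CPM) lies under control replicate 1 (2.91 CPM).

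Lfng encodes lunatic fringe, a glycosyltransferase that extends sugars on the receptors and shifts their response between Delta and Jagged ligands (Entrez 16848, chromosome 5, 140607341 to 140615545). It stood at 28.9, 28.1 and 26.3 CPM in Grhl2_cKO replicates 1, 5 and 10, and at 27.1, 22.7 and 25.4 CPM in control replicates 1, 3 and 7. The groups overlapped, with control replicate 1 above Grhl2_cKO replicate 10. Lfng had a log2 fold change of 0.15 ± 0.09 (SE; edgeR adjusted p = 0.602), an interval of 96.4% to 127% of control.

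Levels per kilobase placed Hes1 first and Dll1 last in both genotypes. The lengths were those deposited with the counts, and the transcripts used in these cells were not determined. Ranks and ratios between genes are therefore approximate. In Grhl2_cKO the mean levels, in CPM per kilobase of gene length, ran from Hes1 (31.0) through Notch1 (25.7), Notch2 (17.4), Dtx4 (17.4), Notch3 (13.1), Lfng (12.1), Jag1 (7.46), Jag2 (7.18) and Nrarp (2.61) to Dll1 (1.22). In control they ran from Hes1 (32.7) through Notch1 (28.6), Dtx4 (23.1), Notch2 (17.4), Notch3 (16.2), Lfng (10.98), Jag1 (9.37), Jag2 (6.70) and Nrarp (4.16) to Dll1 (0.659). The order differed at 1 place. Dtx4 exceeded Notch2 in each control library, and in Grhl2_cKO the ranges of this pair overlapped. Neighbours whose ranges also overlapped were Notch3 with Lfng and Jag1 with Jag2 in Grhl2_cKO, and Hes1 with Notch1, Notch2 with Notch3 and Lfng with Jag1 in control.

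**Figure D4:**
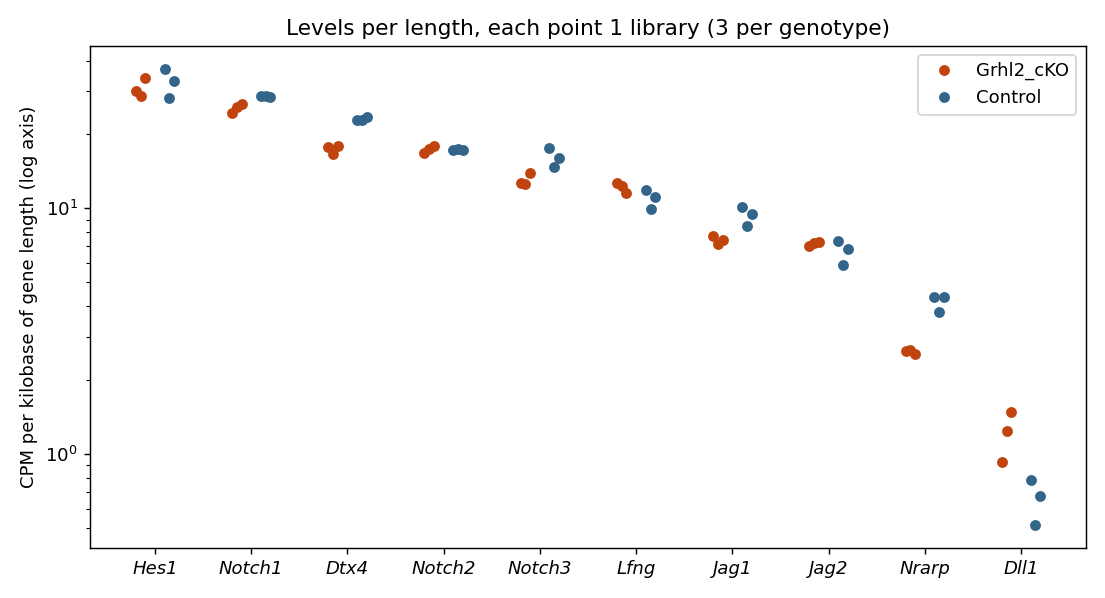
Level of each gene per kilobase of gene length on a log axis, 1 point per library, Grhl2_cKO (red) left of Control (blue), ordered by the control mean. Hes1 and Notch1 lead, Dll1 lies lowest, and Nrarp and Dtx4 show a gap between the genotypes.

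None of the other pathway genes was called. Of 51 such genes, chosen for their roles with earlier results of these data known, 47 were tested. In the edgeR test 0 passed, and 0 with DESeq2 or limma-voom. Across all genes tested 3.62% were called by edgeR, a share at which a list of 47 would hold few calls. An unadjusted edgeR p under 0.05 was found for 4 of the 47, a smaller share than the 1981 of all 14842 genes tested. Hes2, Hes3, Hes5 and Hes7 had too few counts to test. The median log2 fold change of the 47 was 0.04, and CPM did not overlap between genotypes for 6 of them, beside 18.1% of all genes tested. Rbpj, the DNA-binding partner, averaged 72.3 ± 3.75 CPM in Grhl2_cKO and 73.1 ± 1.17 CPM in control (SD, n = 3 each), with a log2 fold change of -0.02 (95% interval -0.15 to 0.12). The 11 genes of the nuclear complex ranged from -0.11 to 0.08 on the log2 scale, and the 10 cleavage genes, which include the ADAM proteases and gamma-secretase subunits, from -0.11 to 0.20. The widest 95% interval among the cleavage genes was that of Aph1c, a gamma-secretase subunit, at 83.5% to 159% of control.

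Besides Dner, the genes with an unadjusted p under 0.05 were Furin, the convertase of the receptor precursor, Dtx3 and Dtx3l, and their values are given as a description. Furin stood at 196.9, 198.5 and 204.8 CPM in Grhl2_cKO replicates 1, 5 and 10, against 175.1, 184.9 and 190.1 CPM in control replicates 1, 3 and 7, with no overlap (log2 fold change 0.13 ± 0.06 SE; edgeR adjusted p = 0.36). Dtx3l, a deltex relative of Dtx4, stood at 22.8, 21.6 and 22.1 CPM in Grhl2_cKO, against 18.2, 19.3 and 19.4 CPM in control (log2 fold change 0.22 ± 0.08 SE; edgeR adjusted p = 0.246). Dtx3 overlapped between genotypes (0.17 ± 0.08; edgeR adjusted p = 0.37). Dtx2, another relative, was at 0.01 (edgeR adjusted p = 0.993). Of the other bHLH targets, Hey1 had a log2 fold change of 0.19, Hey2 of 0.18, Heyl of -0.13 and Hes6 of -0.02, with edgeR adjusted p of 0.739 or more. Hey1 did not overlap, at 4.86 to 5.72 CPM in Grhl2_cKO against 4.32 to 4.78 CPM in control. Hey2, Heyl and Hes6 overlapped between genotypes.

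**Figure D5:**
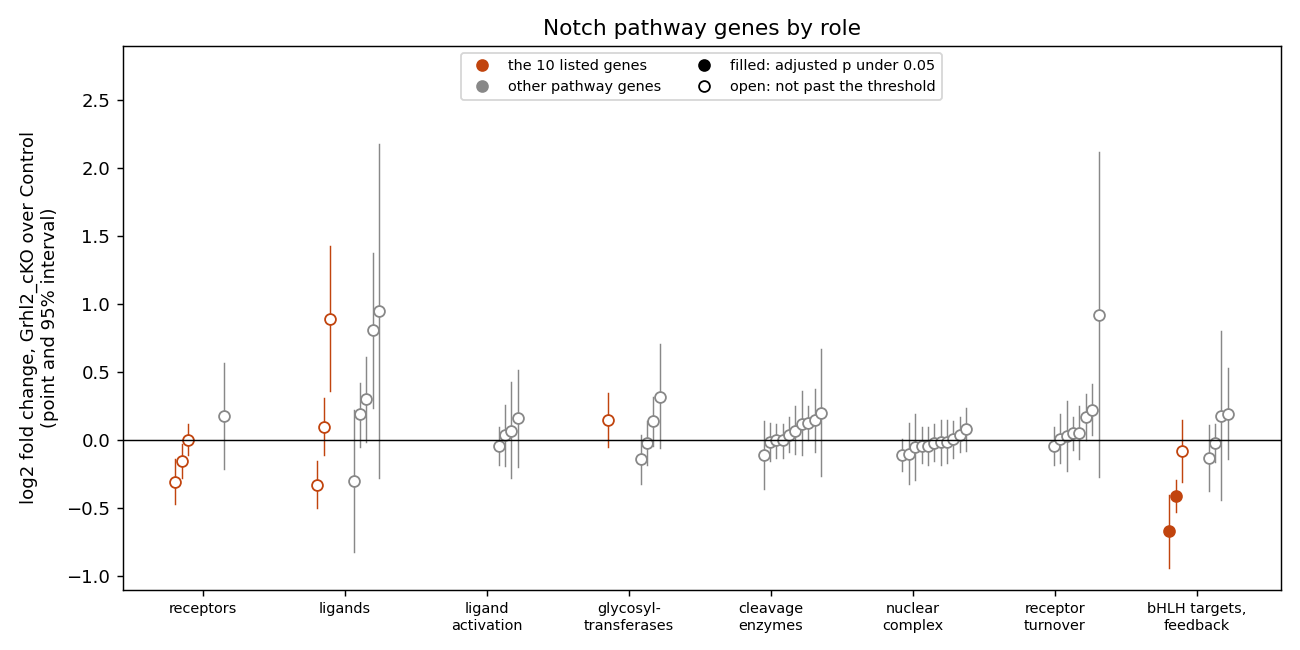
Log2 fold change, Grhl2_cKO over Control, of the 10 listed genes (red) and the 47 other tested pathway genes (grey) by role, each with its 95% interval. Filled points, Nrarp and Dtx4, have adjusted p under 0.05; the widest intervals belong to Dll3 and Dtx1, which have few counts.

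Markers of the airway fates that Notch divides differed between genotypes beside these genes. The sum of 8 ciliated markers was 67.2 to 97.6 CPM in Grhl2_cKO and 139.5 to 173.4 CPM in control. Of the 8, 5 were called lower, beside 2.39% of all genes tested, among them Foxj1 and Mcidas, which switch on motile cilia. The marker lists were chosen with earlier results of these data known, so such counts are not a test. Foxj1 and Mcidas were at 43.7% and 48.5% of control (edgeR adjusted p = 0.00597 and 0.00866). Ccdc113 and Tekt4 were at 33.9% and 41.2% of control but were not called (edgeR adjusted p = 0.0531 and 0.0555). Gmnc overlapped between genotypes, at 91.4% of control (edgeR adjusted p = 0.876). The sum of 6 secretory markers was 74.8 to 166.4 CPM in Grhl2_cKO and 189.6 to 274.0 CPM in control. Of the 6, 2 were called lower, Cbr2 and Lypd2 (edgeR adjusted p = 0.0151 and 0.00412), beside the same 2.39% of all genes tested. Scgb3a2, Cyp2f2 and Upk3a were at 50.6%, 48.6% and 41.3% of control with no overlap between genotypes. These genes were not called (edgeR adjusted p = 0.0857, 0.109 and 0.0789). Scgb1a1 overlapped, at 77.8% of control (edgeR adjusted p = 0.896). Both sums were highest among the knockout libraries in replicate 1. The part of cell makeup in the Notch values was not tested.

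The genes closest to Nrarp and Dtx4 across the 6 libraries were found by the root mean square difference of log2 CPM deviations, among genes with a mean of 10 CPM or more. For Nrarp they were Eef2k, Ssx2ip and Trpm4, at 0.062, 0.067 and 0.069 log2 units over 10328 genes compared. For Dtx4 they were Kif21b, Pkp3 and Cblc, at 0.024, 0.028 and 0.029 log2 units. Kif21b did not pass the threshold itself (edgeR adjusted p = 0.0555), and the other 5 genes were called lower. Genes matched to a gene that was called lower share its fall, so these calls are not a separate result.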

How the data were processed

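RNA of EpCAM+ cells sorted from E16.5 mouse lungs was sequenced from stranded mRNA libraries, per the labels' protocols. Raw gene counts, with Entrez identifiers and gene lengths, are in 1 table as the authors deposited it, and the submitters' processing notes name bcl2fastq 2.17.1.14, featureCounts, edgeR 3.16.5, limma 3.30.12 and mm10. The aligner, the strand setting and the treatment of reads with several matches were not given in the sources used here. Genes were named by Entrez identifier, which matched 25275 of 27179 identifiers. Libraries held 13472216 to 17228762 counts, and 3 counts correspond to 0.178 to 0.224 CPM, which covers counting error only.

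The 14842 genes kept by filterByExpr (minimum count 10, minimum total 15) were fitted with edgeR 4.0.16 in R 4.3.3, using TMM scaling and the quasi-likelihood test of Grhl2_cKO over control, with p-values adjusted by Benjamini-Hochberg over all of them. The threshold was adjusted p under 0.05. Standard errors were worked back from the fold change and the F statistic of that test. Intervals are approximate 95% intervals of the fitted fold change that use these standard errors. Named by rule are all 10 genes, other pathway genes called or with an unadjusted p under 0.05, those left out by the filter, Grhl2, the sums of the marker lists, and the 3 genes of at least 10 CPM nearest to each called gene. Other pathway and marker genes named, and the ratios between genes, were chosen after their values were seen. The 10 genes and all lists were chosen with earlier results of these data known. DESeq2 1.42.0, limma-voom (limma 3.58.1), other scalings and filters, a sex covariate and fits without each library were alternatives, and the legacy quasi-likelihood setting was added after seeing the data. The fits were tested on simulated data. 1 marker gene is not reported here, and the marker sums leave it out.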

Additional observations from a re-analysis of the deposited data

How the results depend on the processing

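Of the 10 genes, 2 were called in the edgeR fit and 4 with total counts in place of TMM, with DESeq2 and with robust quasi-likelihood, where Jag1 and Notch3 passed as well. Leaving out 1 library gave 1 to 3 called genes of the 10 and 249 to 504 called genes of all tested, against 537 with all libraries. Leaving out 1 library gave Notch2 log2 fold changes of -0.015 (without Grhl2_cKO replicate 10) to 0.028 and Hes1 log2 fold changes of -0.174 to 0.030 (without control replicate 1), changes of sign in genes that were never called. Other scalings, filters and tools called 452 (sex as a covariate) to 661 (DESeq2) genes, and none of the 47 other pathway genes was called under any of the 16 alternatives. Across the 10 genes and the 4 named pathway genes, 211 of 224 values kept their direction and side of the threshold. The cause of the changes was not tested. Dll1, with 29 to 86 counts per library, is the listed gene most limited by depth. No paired analysis was possible because the genotypes share only replicate number 1.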

Other observations

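Among ligands outside the 10 genes, Dlk1 was the most abundant. It encodes a Delta-like protein without the receptor-binding domain of the Delta ligands. Dlk1 averaged 3504.1 ± 89.5 CPM in Grhl2_cKO and 3077.8 ± 274 CPM in control (SD, n = 3 each; edgeR adjusted p = 0.543). Its CPM did not overlap between genotypes and was higher in Grhl2_cKO. Dll4, a Delta ligand known from endothelium, averaged 12.6 ± 2.03 CPM in Grhl2_cKO and 10.2 ± 0.690 CPM in control (SD, n = 3 each; edgeR adjusted p = 0.4).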
